A study of Rattus norvegicus with 9 samples.

Results

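The miR-17-92 and miR-106b-25 clusters, with miR-92b-3p as a separately encoded relative of miR-92a-3p, supplied 10 of the 726 miRNA rows of the deposited table. The 10 rows were chosen by name: rno-miR-17-5p, rno-miR-18a-5p, rno-miR-19a-3p, rno-miR-20a-5p, rno-miR-19b-3p and rno-miR-92a-3p from miR-17-92, rno-miR-106b-5p, rno-miR-93-5p and rno-miR-25-3p from miR-106b-25, and rno-miR-92b-3p. The species prefix rno is left off from here on. Small RNA was sequenced from wild-type (WT) rat cartilage progenitor cells, grown as primary cultures from condylar cartilage, the cartilage of the jaw joint. The P9 libraries (n = 3) came from passage 9 cells, the study's replicative senescence group. The FFSS libraries (n = 3) came from passage 3 cells exposed to flow fluid shear stress (FFSS), its degeneration group; the sources used here give neither the strength nor the duration of the flow. Last, the P3 libraries (n = 3) came from passage 3 cells, its control. The labels do not say whether the 3 libraries of a group came from separate animals or cultures, so the p-values below speak only for the spread among the sequenced libraries, which may be technical.

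Both clusters are known as growth-associated miRNAs. In human and mouse cells the miR-17-92 transcript is switched on by MYC and by the transcription factors that drive S phase, and the miR-106b-25 hairpins lie in an intron of Mcm7, which encodes a subunit of the replicative helicase. One primary transcript carries all hairpins of a cluster, each hairpin is cut out separately, and the mature strand then represses mRNAs that pair with its seed, bases 2 to 8.

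The mature sequences are shown because their seeds define which members can bind the same sites. All 10 rows matched a RefSeq entry of the rat assembly GRCr8, and the seed is in capitals.
miR-17-5p: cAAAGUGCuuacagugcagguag
miR-20a-5p: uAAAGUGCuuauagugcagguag
miR-106b-5p: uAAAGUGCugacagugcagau
miR-93-5p: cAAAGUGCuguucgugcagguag
miR-18a-5p: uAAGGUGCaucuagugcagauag
miR-19a-3p: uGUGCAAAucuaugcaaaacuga
miR-19b-3p: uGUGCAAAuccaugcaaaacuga
miR-92a-3p: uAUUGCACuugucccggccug
miR-25-3p: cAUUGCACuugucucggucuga
miR-92b-3p: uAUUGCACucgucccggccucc

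The 10 sequences carried 4 distinct seeds. miR-17-5p and miR-20a-5p from miR-17-92 shared the AAAGUGC seed with miR-106b-5p and miR-93-5p from miR-106b-25, and miR-92a-3p shared the AUUGCAC seed with miR-25-3p and miR-92b-3p. miR-19a-3p and miR-19b-3p shared another seed, and miR-18a-5p had its own. Counting from 1 at the 5′ end, miR-20a-5p differed from miR-17-5p by C1U and C12U, miR-19b-3p from miR-19a-3p by U11C, and miR-92b-3p from miR-92a-3p by U10C and G21C, with 1 further base at its 3′ end. miR-17-5p and miR-93-5p were identical at 19 of 23 positions. No member had counts within 10% or 5 reads of another row in every library, the mark of shared reads used here.

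In GRCr8 the mature arms of the 6 miR-17-92 hairpins span 762 bases, chr15:98587861-98588622 on the plus strand, and those of the 3 miR-106b-25 hairpins span 472 bases, chr12:22156652-22157123 on the minus strand. The Mir92b hairpin lies alone at chr2:176931653-176931735 on the minus strand. miR-17-5p, miR-19b-3p and miR-92a-3p each have a second hairpin in the miR-106a-363 cluster, whose mature arms span chrX:137342788-137343637, so reads of these 3 members cannot be assigned to 1 locus by sequence. The Mir92a1 hairpin, at chr15:98588555-98588632, and the Mir92b hairpin are shown with both mature arms in capitals, because the arms outside the seed tell the loci apart.
Mir92a1: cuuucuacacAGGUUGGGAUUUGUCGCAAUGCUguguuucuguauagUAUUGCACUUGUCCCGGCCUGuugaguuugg
Mir92b: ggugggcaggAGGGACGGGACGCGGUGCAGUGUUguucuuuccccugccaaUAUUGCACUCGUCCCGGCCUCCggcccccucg

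The libraries held 7614513 to 8177357 reads in P9, 2878910 to 7082142 in FFSS and 7522702 to 8862560 in P3, and the 10 members took 0.1544% to 0.3138% of a library. Levels are CPM, a count scaled to the reads of its library, with SD over 3 libraries. P9 replicate 3 stood apart from the other P9 libraries in several sums of tissue markers. Muscle markers summed to 534 CPM in it, of which miR-1b was 462 CPM, and to 167 and 151 CPM in the others. FFSS libraries held 189 to 538 CPM of them and P3 libraries 141 to 158 CPM. The muscle marker miR-206-3p was at 9.78 CPM in it, against 18.4 and 8.01 CPM. Liver markers summed to 22.9 CPM against 3.94 and 3.43 CPM, and endothelial markers to 491 CPM against 297 and 275 CPM. Nervous system markers were at 1489 CPM against 594 and 583 CPM, and epithelial markers at 17.2 CPM against 32.7 and 31.3 CPM. The blood sum, 311 CPM, was near that of P9 replicate 2, 305 CPM. The cartilage miRNAs miR-140 and miR-455, which mark the labelled tissue, were at 2590.0 to 3847 CPM summed in P9, 6077 to 7202 CPM in FFSS and 4150.4 to 7370.1 CPM in P3.

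miR-25-3p was the most abundant member in all 3 groups, at 849 ± 111 CPM in P9, 1576 ± 512 CPM in FFSS and 914 ± 225 CPM in P3. Over the 9 libraries it ranked 53 of 726, ahead of miR-92a-3p at 84 and miR-93-5p at 90. miR-19a-3p was the least abundant over all libraries and ranked 389. The miR-25-3p libraries lay above those of every other member in each group. In P9, the libraries of each member other than miR-25-3p overlapped in range with those of the next member in the order of means. In FFSS, the ranges separated miR-93-5p from miR-17-5p, and then miR-106b-5p, miR-92b-3p, miR-19b-3p and miR-18a-5p each from the next in the order, down to miR-19a-3p. In P3, miR-17-5p lay clear of miR-106b-5p, and miR-19b-3p of miR-18a-5p.

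**Figure D1:**
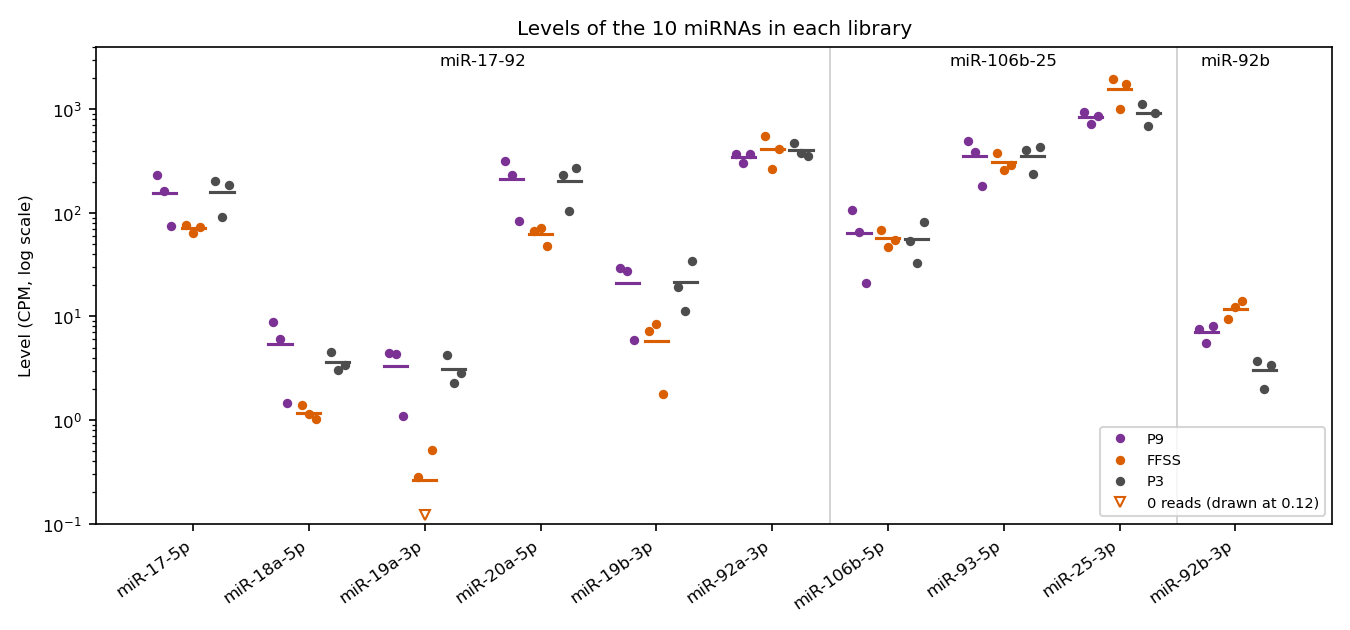
Level of each member in each library (CPM, log axis), with P9, FFSS and P3 from left to right a bar at each group mean and an open triangle for the library with 0 reads of miR-19a-3p. miR-20a-5p lay at 48 to 71.6 CPM in FFSS, below all P3 libraries, while miR-92b-3p lay at 9.38 to 14.1 CPM in FFSS, above all P3 libraries.

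Under shear stress, 5 of the 6 miR-17-92 members had lower levels in every FFSS library than in any P3 library, and the sixth, miR-92a-3p, did not. Of the 10 members, 3 fell and 1 rose at an adjusted p under 0.05. This p, here and throughout, is from edgeR's quasi-likelihood test with Benjamini-Hochberg adjustment over 439 miRNAs. Of all miRNAs tested, 20.5% were called in either direction, 13.7% lower and 6.83% higher. In CPM, 6 of 10 members had FFSS values clear of all P3 values, 1 higher and 5 lower, against 41.5% of all tested, 18.9% higher and 22.6% lower. An unadjusted p under 0.05 was reached by 7 members, and by 36.2% of all tested. The median log2 fold change was -0.70 over the members and -1.69 over the 6 miR-17-92 members, against 0.02 over all tested. In bulk RNA, fewer cells of a type and less RNA per cell cannot be told apart.

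miR-17-5p and miR-20a-5p, which in human cells repress the cell cycle inhibitor p21 and the pro-apoptotic protein Bim, were the most abundant of the members that fell. miR-20a-5p was at 66.7, 71.6 and 48 CPM in FFSS, against 234, 104 and 274 CPM in P3. The groups did not overlap, although P3 replicate 2 was well below the other P3 libraries. Its log2 fold change was -1.72 (SE 0.46, adjusted p = 0.0267). The call held in 21 of 24 alternative settings, and was lost without FFSS replicate 3 (adjusted p = 0.0939), P3 replicate 1 (0.063) or P3 replicate 3 (0.0752), within an adjusted p of 0.00201 to 0.0939 over all 24.

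miR-17-5p was at 76.4, 63.8 and 73.1 CPM in FFSS, against 201, 91.7 and 187 CPM in P3. The FFSS libraries were close together and all below P3 replicate 2, the lowest control. Its log2 fold change was -1.18 (SE 0.38, adjusted p = 0.0459). This call lay near the threshold and held in only 9 of 24 alternatives, with an adjusted p of 0.00983 to 0.136. It was lost without P9 replicate 2 (0.0609), FFSS replicate 2 (0.0923), FFSS replicate 3 (0.136), P3 replicate 1 (0.118) or P3 replicate 3 (0.124).

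miR-19a-3p had 0, 2 and 2 reads in FFSS, against 36, 17 and 25 reads in P3. These counts correspond to 0, 0.282 and 0.513 CPM in FFSS and to 4.28, 2.26 and 2.82 CPM in P3. The 0 in FFSS replicate 1, the shallowest library, allows up to 1.042 CPM (3 reads, counting error only), which is still below every P3 library. The log2 fold change was -3.39 (SE 0.76, adjusted p = 0.00985), and its size rests on 4 reads in FFSS. It was called in all 23 alternatives that tested it.

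miR-19b-3p, with the same seed and a higher level, was at 7.29, 8.47 and 1.8 CPM in FFSS, against 19.1, 11.3 and 34.3 CPM in P3. miR-18a-5p was at 1.39, 1.13 and 1.03 CPM in FFSS, against 4.52, 3.06 and 3.39 CPM in P3. Neither pair of groups overlapped, but neither difference was called. The log2 fold changes were -1.86 (SE 0.68, adjusted p = 0.0678) for miR-19b-3p and -1.66 (SE 0.60, adjusted p = 0.0678) for miR-18a-5p. Without P9 replicate 3, which entered the shared estimate of spread, the adjusted p was 0.0162 for miR-19b-3p and 0.00919 for miR-18a-5p, and fitting FFSS and P3 alone gave 0.0344 and 0.0271. Most settings gave no call: 3 of 24 alternatives called miR-19b-3p and 3 of 23 called miR-18a-5p. The adjusted p reached 0.233 for miR-19b-3p (without P3 replicate 3) and 0.182 for miR-18a-5p (without FFSS replicate 3).

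miR-92a-3p, the last hairpin of miR-17-92, known in human and mouse endothelium for restraining vessel growth, was at 551, 267 and 417 CPM in FFSS, against 471, 376 and 355 CPM in P3. The ranges overlapped widely, with FFSS replicate 2 lowest of the 6 libraries and FFSS replicate 1 highest. The log2 fold change was 0.02 (SE 0.31, adjusted p = 0.975). The ratio of miR-92a-3p to miR-17-5p, both also encoded on X, was 7.21, 4.18 and 5.71 in FFSS, against 2.34, 4.09 and 1.9 in P3. All FFSS values were above all P3 values, P3 replicate 2 by a small margin. This ratio and those below were picked after values were seen and are given without a test.

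The miR-106b-25 members with the AAAGUGC seed, which in human cells also repress p21, gave no call. miR-93-5p was at 376, 262 and 288 CPM in FFSS, against 407, 236 and 429 CPM in P3, and miR-106b-5p at 69.1, 46.9 and 54.2 CPM in FFSS, against 53.4, 32.8 and 81.6 CPM in P3. For both, the FFSS libraries lay inside the P3 range. The log2 fold changes were -0.22 (SE 0.36, adjusted p = 0.673) for miR-93-5p and -0.01 (SE 0.48, adjusted p = 0.989) for miR-106b-5p, and the sign of the second depended on the scaling. The ratio of miR-93-5p to miR-17-5p, which share a seed but not a locus, was 4.92, 4.1 and 3.94 in FFSS, against 2.03, 2.57 and 2.3 in P3.

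miR-25-3p, which in human cells represses Bim, was at 1981, 1001 and 1748 CPM in FFSS, against 1135, 685 and 923 CPM in P3. FFSS replicate 2 lay within the P3 range and the other FFSS libraries above it. The log2 fold change of 0.77 (SE 0.29) was not called (adjusted p = 0.073). It passed in 1 of 24 alternatives, without FFSS replicate 2, at 0.95 (adjusted p = 0.0387). Without FFSS replicate 1 it was 0.37 (adjusted p = 0.344). Summed blood, muscle, liver, epithelial and endothelial markers moved in the same order across the FFSS libraries. Library depth ran in the reverse order, at 2878910, 7082142 and 3896403 reads in turn. The nervous system sum did not follow the order of these markers, at 432, 802 and 1283 CPM in FFSS against 505 to 1121 CPM in P3. Nearly all of it was miR-128-3p, at 431, 801 and 1282 CPM in FFSS. In every library miR-124-3p, miR-124-5p and miR-219a-5p were each at 1.39 CPM or lower. The 9 blood markers, all present in the table, summed to 73.4 to 311 CPM in P9, 171 to 603 CPM in FFSS and 79.7 to 161 CPM in P3, with 603, 171 and 399.9 CPM in the FFSS libraries in turn. Most of the sum came from the red-cell miRNAs miR-451-5p, at 276, 63.8 and 180.2 CPM in FFSS against 62.2, 85.2 and 24.5 CPM in P3, and miR-486, at 296, 90.2 and 187 CPM in FFSS against 67.4, 64.9 and 44.9 CPM in P3. Of the 5 blood markers tested, miR-142-5p was called higher in FFSS, and miR-144-3p and miR-223-3p were under 1 CPM in every library. Summed muscle markers were at 538, 189 and 282 CPM in FFSS against 141 to 158 CPM in P3, liver markers at 51.4, 15.5 and 30.5 CPM against 10.1 to 11.7 CPM, epithelial markers at 82.7, 32.3 and 56.2 CPM against 28.3 to 29.6 CPM, and endothelial markers at 695, 556 and 590.3 CPM against 386 to 406 CPM. All 4 sums were higher in each FFSS library than in any P3 library. Of the 5 epithelial markers tested, 1, miR-200b-3p, was called higher in FFSS. None of the 4 muscle, 2 endothelial and 1 liver markers tested was called in FFSS against P3. Most of the muscle sum was miR-1b, at 457, 157 and 229 CPM in FFSS. Most of the endothelial sum was miR-126a-3p, at 686, 551 and 584 CPM. The FFSS and P3 libraries overlapped for miR-1-3p, miR-206-3p, miR-126a-5p and miR-205. The part of any of these markers, or of library depth, in the miR-25-3p and miR-92a-3p levels was not tested.

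miR-92b-3p, known in human embryonic stem cells for repressing the cell cycle inhibitor p57, was the member that rose. It was at 9.38, 12.3 and 14.1 CPM in FFSS, against 3.69, 1.99 and 3.39 CPM in P3. Every FFSS library was more than 2 times the highest P3 library. The log2 fold change was 1.94 (SE 0.37, adjusted p = 0.00724), and it was called in all 23 alternatives that tested it. miR-92b-3p stayed scarce beside its relative: its ratio to miR-92a-3p was 0.017, 0.046 and 0.0338 in FFSS, against 0.00783, 0.00531 and 0.00953 in P3. Its opposite arm from the same hairpin, miR-92b-5p, also rose, by a log2 fold change of 2.95 (SE 0.83, adjusted p = 0.0313), from 25 reads in FFSS against 5 reads in P3. That call held in 3 of 9 fits that each left out 1 library, the 3 without a P9 library, and was lost without any FFSS or P3 library (adjusted p = 0.0505 to 0.11).

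**Figure D2:**
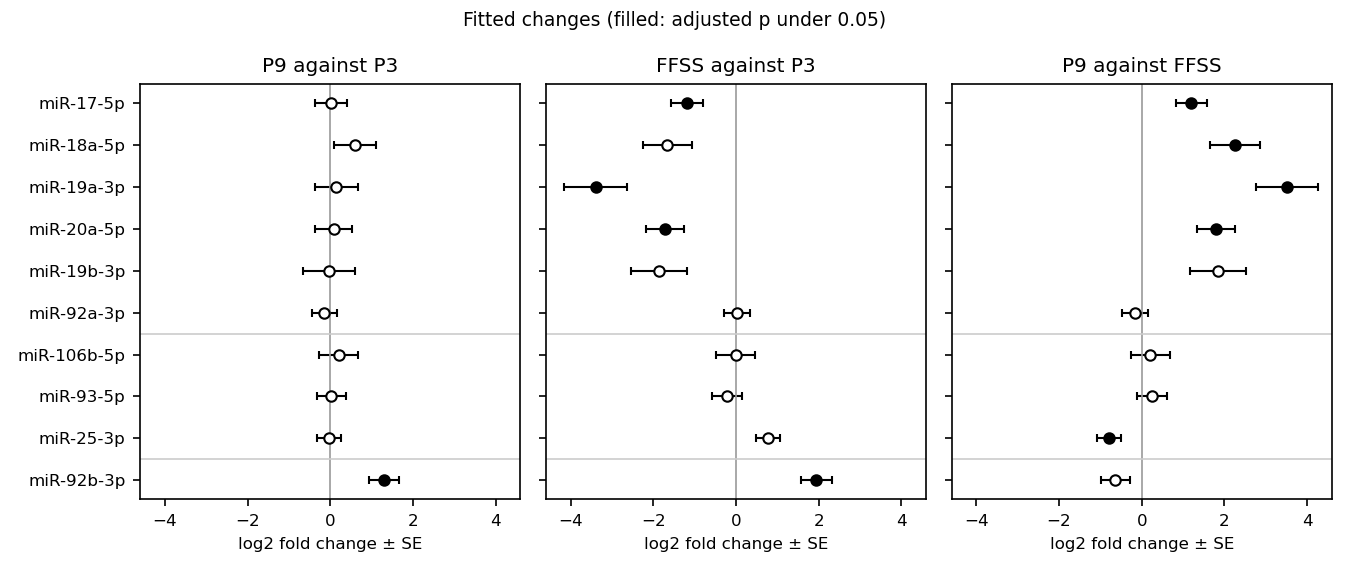
Log2 fold change of each member in 3 panels, for P9 over P3, FFSS over P3 and P9 over FFSS; points are edgeR estimates, bars are the SE and filled points passed an adjusted p of 0.05. In the FFSS over P3 panel the estimates run from -3.39 for miR-19a-3p to 1.94 for miR-92b-3p.

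GC content was lowest and highest in the members with the outermost fold changes. miR-19a-3p had the lowest GC content of the 10, 34.8%, and the lowest fold change, and miR-92b-3p had the highest of both, with 63.6% GC. Across 401 tested miRNAs with a sequence, Spearman's rho between GC content and the difference from the P3 mean was 0.04, 0.09 and 0.22 in the FFSS libraries and 0.39, -0.21 and -0.03 in the P3 libraries; the miRNAs of 1 library share its preparation. A GC offset, chosen after seeing the data, ended the miR-17-5p call (log2 fold change -1.08, adjusted p = 0.0627) but not those of miR-19a-3p, miR-20a-5p and miR-92b-3p. The 401 miRNAs without the offset gave -1.23 for miR-17-5p (adjusted p = 0.0417).

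At passage 9 miR-92b-3p was the member called. Of the 10 members, 1 rose and none fell between P9 and P3, where 7.29% of all tested miRNAs were called, 3.87% higher and 3.42% lower. An unadjusted p under 0.05 was reached by 1 member, again miR-92b-3p, and by 17.3% of all tested. In CPM, 1 of 10 members had P9 values clear of all P3 values, against 25.3% of all tested, 11.2% higher and 14.1% lower. The median log2 fold change was 0.05 over the members and 0.06 over all tested. This comparison and FFSS against P3 share the same P3 libraries.

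miR-92b-3p was at 7.62, 5.59 and 8.07 CPM in P9, against 3.69, 1.99 and 3.39 CPM in P3. All P9 libraries lay above all P3 libraries. Its log2 fold change of 1.30 (SE 0.37, adjusted p = 0.049) was at the threshold, was called in 4 of 23 alternatives and reached an adjusted p of 0.179 among them. In fits that each left out 1 library, the call held only without FFSS replicate 1 (adjusted p = 0.0354), and the other 8 gave 0.0525 (without FFSS replicate 2) to 0.179 (without P3 replicate 2).

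The other members gave no call, and for the miR-17-92 members other than miR-92a-3p the P9 libraries were far apart. miR-20a-5p was at 316, 232 and 83 CPM in P9, against 234, 104 and 274 CPM in P3. P9 replicate 3 was below every P3 library, and P9 replicate 1 above every one. miR-17-5p was at 231, 164 and 75.2 CPM in P9, against 201, 91.7 and 187 CPM in P3, with the same library lowest. The log2 fold changes were 0.08 (SE 0.45, adjusted p = 0.956) and 0.02 (SE 0.38, adjusted p = 0.989).

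miR-18a-5p was at 8.8, 6.1 and 1.47 CPM in P9, miR-19a-3p at 4.47, 4.32 and 1.1 CPM, and miR-19b-3p at 29.3, 27.7 and 5.87 CPM. In each of them P9 replicate 3 was below all P3 libraries. The log2 fold changes against P3 were 0.60 (SE 0.50, adjusted p = 0.596) for miR-18a-5p, 0.14 (SE 0.52, adjusted p = 0.95) for miR-19a-3p and -0.03 (SE 0.63, adjusted p = 0.991) for miR-19b-3p. Over the 5 miR-17-92 members other than miR-92a-3p, the median log2 difference from the P3 mean was 0.50, 0.61 and -1.02 in the P9 libraries. The same median was -1.30, -1.37 and -2.18 in the FFSS libraries and 0.10, -0.58 and 0.38 in the P3 libraries. By this median, P9 replicate 3 lay between the FFSS libraries and the lowest P3 library, although its miR-19b-3p and miR-17-5p levels were inside the FFSS range. Whether the muscle or other tissue markers of P9 replicate 3 have a part in this was not tested.

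The AUUGCAC members did not show that drop in P9 replicate 3. miR-92a-3p was at 369.7, 302 and 367 CPM in P9, against 471, 376 and 355 CPM in P3, and miR-25-3p at 949, 729 and 868 CPM in P9, against 1135, 685 and 923 CPM in P3. The log2 fold changes were -0.14 (SE 0.31, adjusted p = 0.91) and -0.03 (SE 0.29, adjusted p = 0.977). The miR-106b-25 members with the other seed did drop in it: miR-93-5p was at 492, 388 and 183 CPM in P9 and miR-106b-5p at 106, 65.6 and 21.2 CPM. Their log2 fold changes against P3 were 0.03 (SE 0.36, adjusted p = 0.989) and 0.20 (SE 0.48, adjusted p = 0.913). The ratio of miR-93-5p to miR-17-5p was 2.13, 2.37 and 2.43 in P9, inside the P3 range of 2.03 to 2.57.

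**Figure D3:**
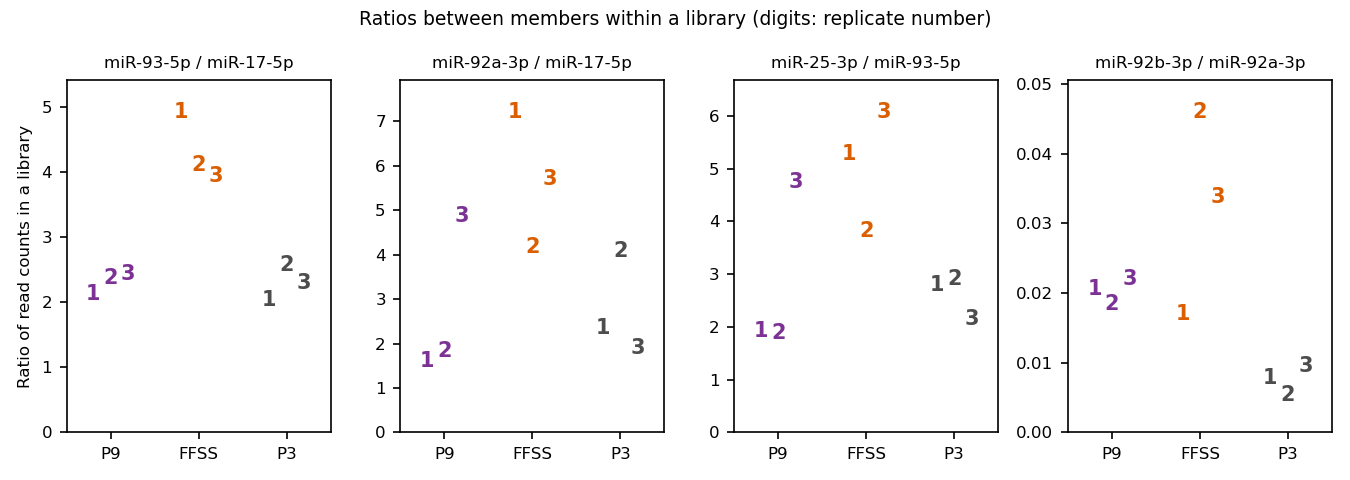
Ratios of read counts between members within each library (linear axes), with P9, FFSS and P3 from left to right and each library drawn as its replicate number. The ratio of miR-93-5p to miR-17-5p lay at 2.13 to 2.43 in P9, 3.94 to 4.92 in FFSS and 2.03 to 2.57 in P3.

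Compared directly, 4 of the 6 miR-17-92 members were higher in P9 than in FFSS. Over all 10 members, 4 were called higher and 1 lower, against 34.4% of all tested miRNAs called, 22.6% higher and 11.8% lower. With upper-quartile factors the calls over all tested were 94 higher and 77 lower, against 99 and 52 here. In CPM, 5 of 10 members had P9 values clear of all FFSS values, 3 higher and 2 lower, against 42.8% of all tested, 23% higher and 19.8% lower. An unadjusted p under 0.05 was reached by 6 members, and by 46% of all tested. The log2 fold changes were 3.52 (SE 0.75, adjusted p = 0.0035) for miR-19a-3p, 2.26 (SE 0.60, adjusted p = 0.0108) for miR-18a-5p, 1.79 (SE 0.46, adjusted p = 0.00961) for miR-20a-5p and 1.20 (SE 0.38, adjusted p = 0.0292) for miR-17-5p. The first 3 were called in every alternative that tested them, and miR-17-5p in 16 of 24. It was lost without P9 replicate 1 (0.0875), P9 replicate 2 (0.0667), FFSS replicate 2 (0.0619) or FFSS replicate 3 (0.0893). For miR-17-5p the groups overlapped, because P9 replicate 3 was below FFSS replicate 1.

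miR-19b-3p, at 1.84 (SE 0.68, adjusted p = 0.0506), was not called. It passed in 11 of 24 alternatives, with upper-quartile factors (0.0484), library size only (0.0468), TMM without the top 10 miRNAs (0.047), no filter (0.0496), the filter at a mean of 50 counts (0.0455), DESeq2 (0.0171) and RefSeq rows only (0.0491), and without P9 replicate 3 (2.33, adjusted p = 0.00401), FFSS replicate 2 (0.0495), P3 replicate 2 (0.0486) or P3 replicate 3 (0.0447). miR-25-3p was lower in P9 than in FFSS, with no overlap and a log2 fold change of -0.80 (SE 0.29, adjusted p = 0.0468). The levels were 949, 729 and 868 CPM in P9, against 1981, 1001 and 1748 CPM in FFSS. The call held in 11 of 24 alternatives. Of the fits that each left out 1 library, it held only without FFSS replicate 2 (adjusted p = 0.0225), and the other 8 gave 0.0501 (without P9 replicate 3) to 0.287 (without FFSS replicate 1). The remaining members gave no call: miR-92b-3p was at -0.64 (SE 0.35, adjusted p = 0.173) although its libraries did not overlap, miR-92a-3p at -0.16 (SE 0.31, adjusted p = 0.702), miR-93-5p at 0.25 (SE 0.36, adjusted p = 0.6) and miR-106b-5p at 0.21 (SE 0.48, adjusted p = 0.745).

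Summed by seed, the members split into a scarce miR-19 and miR-18 portion and a pair of abundant portions. The 4 members with the AAAGUGC seed summed to 1146, 849.6 and 362 CPM in P9, 588, 444 and 463 CPM in FFSS and 895, 465 and 971 CPM in P3. FFSS replicate 1 was above P3 replicate 2, so the FFSS and P3 sums overlapped, and miR-93-5p made up most of the sum in every FFSS library. The 3 members with the AUUGCAC seed summed to 1326, 1037 and 1244 CPM in P9, 2541, 1281 and 2179 CPM in FFSS and 1609.7, 1063 and 1281 CPM in P3. They took 52.7% to 77% of the members' reads in P9, 73.8% to 82.4% in FFSS and 55.9% to 68.8% in P3. The FFSS and P3 shares did not overlap, and P9 replicate 3 had the highest P9 share. The miR-19 seed summed to 33.8, 32 and 6.97 CPM in P9, 7.29, 8.75 and 2.31 CPM in FFSS and 23.4, 13.6 and 37.1 CPM in P3.

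**Figure D4:**
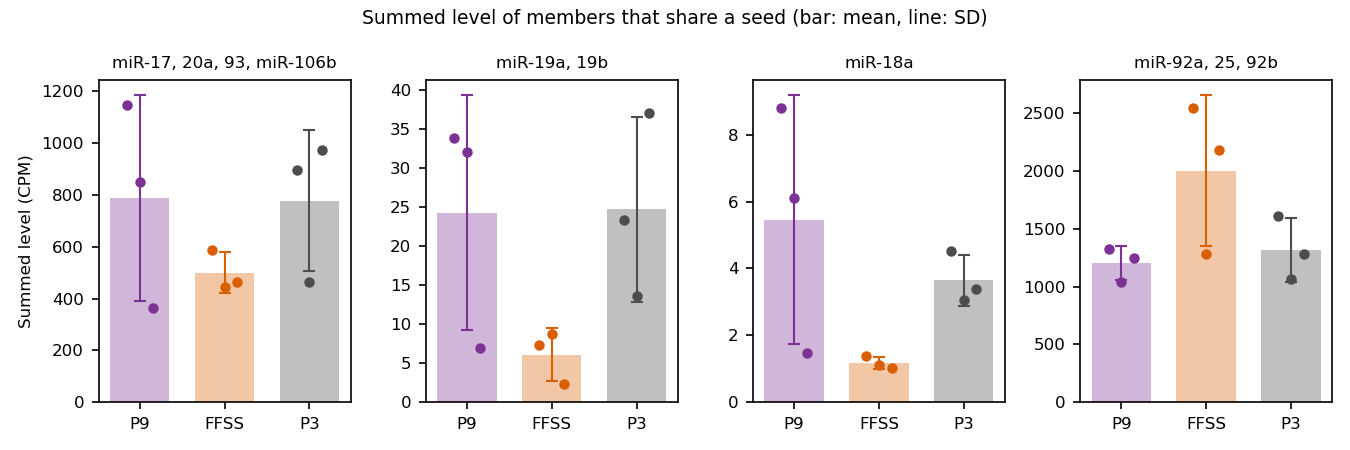
Summed level of the members with each seed (CPM, linear axes from 0), with P9, FFSS and P3 from left to right; points are libraries, bars are means and lines are SD. The AUUGCAC sum reached 2541 CPM in FFSS and 1609.7 CPM in P3 at its highest, and the miR-19 sums of the FFSS libraries, 2.31 to 8.75 CPM, lie below those of P3.

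The ratio of miR-20a-5p to miR-17-5p, neighbours in 1 transcript, was 1.37, 1.42 and 1.1 in P9, 0.873, 1.12 and 0.656 in FFSS and 1.16, 1.14 and 1.47 in P3. All FFSS values were below all P3 values. The ratio of miR-25-3p to miR-93-5p, both from miR-106b-25, was 1.93, 1.88 and 4.75 in P9, 5.27, 3.82 and 6.07 in FFSS and 2.79, 2.91 and 2.15 in P3. Over the 9 libraries the SD of the log2 ratio was 0.37 for miR-17-5p and miR-20a-5p, 0.29 for miR-106b-5p and miR-93-5p, and, between the clusters, 0.39 for miR-92a-3p and miR-25-3p, each a pair with 1 seed. For comparison, the median over 16290 pairs of abundant miRNAs was 0.84, and 5.54%, 2% and 7.1% of those pairs were below the 3 values. Some pairs within a cluster varied more, at 0.64 for miR-93-5p and miR-25-3p, 0.80 for miR-17-5p and miR-92a-3p and 1.08 for the scarce miR-19a-3p and miR-19b-3p. miR-18a-5p and miR-20a-5p, with different seeds but identical at 19 of 23 positions, were also at 0.39. Whether a shared seed has a part in these values was not tested. The other pairs with 1 seed but different loci ran from 0.47 (miR-17-5p and miR-93-5p) to 0.95 (miR-92a-3p and miR-92b-3p).

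Of 13 opposite arms of the member hairpins, 10 were in the table and 5 had enough reads to test. Besides miR-92b-5p, none was called in any comparison. miR-92a-1-5p, which only the miR-17-92 copy of miR-92a encodes, had 18 reads in FFSS against 82 in P3, or 1.59 ± 1.07 CPM against 3.3 ± 0.852 CPM, with overlap, at a log2 fold change of -1.20 (SE 0.54, adjusted p = 0.128), and passed without FFSS replicate 1 at -1.97 (adjusted p = 0.0267). The ratio of miR-92a-3p to this arm was 166, 95 and 158 in P9, 198, 378 and 325 in FFSS and 110.0, 128 and 131 in P3, so all FFSS values lay above all P3 values. The opposite arms of miR-106b-25 had positive estimates in FFSS against P3: 0.51 (SE 0.31, adjusted p = 0.256) for miR-106b-3p, 0.69 (SE 0.41, adjusted p = 0.233) for miR-93-3p and 0.93 (SE 0.54, adjusted p = 0.222) for miR-25-5p.

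For miR-106b the 3p arm was the more abundant, at 145 CPM in P9, 185 CPM in FFSS and 128 CPM in P3 on average. Its ratio to miR-106b-5p was 1.34, 1.92 and 7.97 in P9, 3.28, 2.55 and 3.88 in FFSS and 2.87, 3.34 and 1.47 in P3. P9 replicate 3 was far above the other libraries. The log2 ratio of the 5p to the 3p arm could be tested with limma for miR-106b, miR-93 and miR-25. None was called in any comparison. Of 89 hairpins tested, 0% were called in P9 against P3, 4.49% between FFSS and P3, and 7.87% between P9 and FFSS. The lowest adjusted p, 0.191, was for miR-93 in FFSS against P3, with a difference of -0.85 (SE 0.42).

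The miR-106a-363 cluster on X is the other possible source of miR-17-5p, miR-19b-3p and miR-92a-3p. Its part in their levels was not tested, and the rows that only it encodes differed in reads. miR-17-2-3p had 2 reads in all 9 libraries, miR-363-5p 1 read and miR-20b-5p 13 reads. miR-363-3p, which has the miR-92a seed, had more, with 82 reads in P9, 93 in FFSS and 74 in P3. It averaged 3.41 CPM in P9, 7.41 CPM in FFSS and 3.01 CPM in P3. It was not called in FFSS against P3 (log2 fold change 1.24, SE 0.56, adjusted p = 0.13), although the libraries did not overlap. miR-32-5p, with the same seed, was at -0.72 (SE 0.50, adjusted p = 0.297).

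Outside the clusters, the miRNAs with the profile most like miR-17-92 over the 9 libraries, by root mean square difference in centred log2 CPM among 174 abundant rows, were miR-450a-5p (0.32), miR-542-3p (0.32) and miR-450b-5p (0.39), where the median row was at 0.93. miR-450a-5p averaged 235 ± 74 CPM in P9, 97.1 ± 3.06 CPM in FFSS and 206 ± 6.76 CPM in P3. For miR-106b-25 they were miR-101b-3p (0.21), miR-103-3p (0.23) and miR-16-5p (0.25), where the median row was at 0.62. miR-16-5p averaged 649.9 ± 295 CPM in P9, 946 ± 163 CPM in FFSS and 728 ± 201 CPM in P3.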

How the data were processed

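Small RNA of 18 to 40 bases was sequenced from 1 end. Per the file headers, the deposited table gives read counts, and TPM values that equalled CPM, the count scaled to the library total (largest difference 4.85e-05). The submitters' processing notes name Bowtie and Rnor_6.0. The sources used here give no counting program, no annotation release and no rule for reads with several loci. Counts as deposited were tested with edgeR 4.0.16 in R 4.3.3: filterByExpr kept 439 of 726 rows and removed 0.00685% of reads, libraries were scaled by TMM, and 1 robust quasi-likelihood model held all 9 libraries. A call needed an adjusted p under 0.05 (Benjamini-Hochberg, 439 rows). Arm ratios were tested with limma 3.58.1 on log2 ratios, with a pseudocount of 0.5, for hairpins averaging at least 20 reads per arm. Scripts were tested on simulated data. Alternatives were other scalings, filters, DESeq2 1.42.0, limma-voom, limma with log2(TPM + 1) or log2(TPM + 10) as the value, models with only 2 groups, a replicate block, each library left out, and, chosen after seeing the data, a GC offset (lowess) and rows with a RefSeq sequence only. The members and lists were chosen with earlier results of these data known. Named are all members, their tested opposite arms, rows of miR-106a-363 or with a member seed, and the 3 rows most like each cluster among those averaging at least 50 CPM; ratios were chosen after values were seen. Sequences and coordinates are RefSeq's, GRCr8, not the build of the deposited table.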

Additional observations from a re-analysis of the deposited data

How the results depend on the processing

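In FFSS against P3, miR-19a-3p and miR-92b-3p were called under every alternative that tested them (23 each), miR-20a-5p in 21 of 24 and miR-17-5p in 9 of 24. With a filter at a mean of 50 counts, miR-18a-5p, miR-19a-3p and miR-92b-3p were not tested, so the members called higher and lower in FFSS were 0 and 1. Fitting FFSS and P3 alone gave 5 lower. Leaving out each library in turn gave 1 to 2 higher and 1 to 5 lower, with 5 lower without P9 replicate 3, 1 without FFSS replicate 3 and 2 higher without FFSS replicate 2. In P9 against P3, no member was called with upper-quartile factors, library size only, TMM without the top 10 miRNAs, no filter, the filter at 50, limma-voom, either TPM scale, 2 groups, the replicate block, RefSeq rows only or the GC offset with the block: 0 in each, and 0 to 1 when a library was left out. In P9 against FFSS, the member called lower was lost (0) with no filter, the filter at 50, limma-voom, 2 groups and the replicate block, and in 0 to 1 when a library was left out. For opposite arms, FFSS against P3 gave 0 higher with the filter at 50, the replicate block and the GC offset with the block, and 0 to 1 higher and 0 to 1 lower when a library was left out; P9 against FFSS gave 1 lower on either TPM scale and 0 to 1 higher when a library was left out. The cause was not tested. DESeq2 gave some low rows no adjusted p.

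Same-numbered libraries did not deviate together (correlations of -0.466 to 0.12, and most libraries correlated better with another number). With 3 libraries per group, these correlations cannot tell whether same-numbered libraries share an animal, culture or day. With the replicate block, 0 members were called higher in P9 against P3. The block also ended the miR-17-5p call in FFSS against P3 (-1.19, adjusted p = 0.0664), which left 2 members lower.

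Uncalled log2 fold changes near 0 changed sign. In P9 against P3 they were, for miR-17-5p, -0.03 (upper-quartile, library size, limma-voom), -0.02 (TMM without the top 10, replicate block), -0.09 (TPM + 1, GC offset), -0.08 (TPM + 10), -0.01 (RefSeq rows) and -0.14 (GC offset with the block). For miR-93-5p they were -0.01 (upper-quartile, library size, TMM without the top 10), -0.02 (limma-voom, replicate block), -0.08 (TPM + 1), -0.07 (TPM + 10), -0.0011 (RefSeq rows), -0.05 (GC offset) and -0.13 (GC offset with the block). For miR-20a-5p they were -0.04 (both TPM scales, replicate block), -0.02 (GC offset) and -0.10 (GC offset with the block), and for miR-19a-3p -0.06 (limma-voom) and -0.04 (TPM + 1, GC offset with the block). miR-19b-3p was at 0.0021 (no filter) and 0.10 (filter at 50), and miR-25-3p at 0.07 (filter at 50). In FFSS against P3, miR-92a-3p was at -0.12 (no filter), -0.07 (limma-voom), -0.01 (both TPM scales), -0.03 (TMM without the top 10, replicate block, RefSeq rows) and -0.05 (GC offset with the block). miR-106b-5p was at 0.04 (DESeq2 size factors, limma-voom), 0.06 (upper-quartile), 0.02 (library size), 0.05 (filter at 50, DESeq2), 0.10 (TPM + 1), 0.07 (TPM + 10), 0.03 (2 groups), 0.20 (GC offset) and 0.13 (GC offset with the block). In P9 against FFSS, miR-106b-5p was at -0.08 (TPM + 1), -0.03 (TPM + 10), -0.09 (GC offset) and -0.11 (GC offset with the block).

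Leaving out 1 library also turned signs. In P9 against P3 the ranges were -0.29 to 0.33 (miR-17-5p), -0.15 to 0.53 (miR-19a-3p), -0.24 to 0.45 (miR-20a-5p), -0.32 to 0.54 (miR-19b-3p), -0.20 to 0.32 (miR-93-5p), -0.13 to 0.08 (miR-25-3p), -0.25 to 0.64 (miR-106b-5p), -0.12 to 0.28 (miR-93-3p) and -0.60 to 0.14 (miR-25-5p). In FFSS against P3 they were -0.45 to 0.19 (miR-92a-3p) and -0.36 to 0.36 (miR-106b-5p). In P9 against FFSS they were -0.14 to 0.67 (miR-106b-5p), -0.33 to 0.33 (miR-92a-3p) and -0.40 to 0.15 (miR-106b-3p). For arm ratios they were, in P9 against P3, -0.69 to 0.59 (miR-106b), -0.28 to 0.16 (miR-93) and -0.93 to 0.27 (miR-25), and in P9 against FFSS -0.29 to 0.99 (miR-106b) and -1.13 to 0.06 (miR-25). The GC offset moved the median of all tested miRNAs to 0.15 in FFSS against P3 and -0.13 in P9 against FFSS. FFSS replicate 1 had the fewest reads, which limits miR-19a-3p and miR-18a-5p most.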
